A study of Mus musculus with 12 samples.

Results

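The transcripts described here encode receptor chains for interleukin (IL)-12, IL-27, IL-6, IL-18, IL-33 and interferon-gamma (IFN-γ). The 10 genes, *Il12rb1*, *Il12rb2*, *Il27ra*, *Il6ra*, *Il6st*, *Il18r1*, *Il18rap*, *Il1rl1*, *Ifngr1* and *Ifngr2*, were chosen by their symbols and not by a threshold on their values, with earlier results of these data known. They came from 24439 gene names, and all 10 were among the 12442 genes that exceeded 1 transcript in 1000000 (TPM) in at least 1 library. RNA-Seq was performed on CD4 T-blast cells, which are recently activated, dividing T cells, from spleens of C57BL/6 C42 mice. C42 mice carry human IL3 and CSF2 as a transgene, and this background was shared by all groups. The cells were selected with CD4 microbeads, stimulated with 2 µg/ml concanavalin A (ConA, a lectin that activates T cells) for 40 h and then grown in 50 U/ml IL-2, for 30 h by the methods and 2 days by the labels. The 4 groups of 3 libraries were TB IL-2 (IL-2 kept, no stimulus), TB IL-2nil (the last 16 h without IL-2, no stimulus), TB+ IL-2 (IL-2 kept) and TB+ IL-2nil (the last 16 h without IL-2), and "+" marks 2 h of stimulation with phorbol myristate acetate (20 ng/ml) together with a calcium ionophore (2 µM), or PMA/I, which replaces signalling from the T cell receptor.

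IL-12 acts through IL12RB1 and IL12RB2, which bind the kinases TYK2 and JAK2 and activate STAT4, and this pathway is best known for driving T helper 1 (Th1) cells and IFN-γ production. IL-6 and IL-27 each have a chain of their own, IL6RA and IL27RA, and share the signalling chain gp130, the product of *Il6st*. IL-18 and IL-33 belong to the IL-1 family, whose receptors signal through MYD88 and IRAK kinases, while IFN-γ binds IFNGR1, with IFNGR2 as the chain that brings in JAK2.

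Libraries labelled TB IL-2nil replicate 3 and TB+ IL-2 replicate 3 went against their labels and were placed in each other's group throughout. *Il2*, which PMA/I induces, stood at 1368 FPKM (fragments per kilobase of transcript, scaled by the library's total) in the first and 0.290 FPKM in the second, against 1095 to 2374 FPKM in the other 5 libraries labelled TB+ and 0 to 1.18 FPKM in the other 5 labelled TB. The study's own list of changed genes holds the values of these libraries under exchanged headings, and the main results are also given with the groups as labelled and without both libraries. Relative depth, read from the steps between low values, ran from 0.409 to 1.25 of the median library, with TB IL-2nil replicate 2 the lowest, and short non-coding RNAs took 16.6 to 53.2% of the FPKM sum. In stimulated cells this share did not overlap between groups, at 22.2 to 27.5% in TB+ IL-2 and 32.99 to 53.2% in TB+ IL-2nil, and leaving these RNAs out changed no call of a receptor gene. The 6 T cell markers summed to 1185 to 2164 TPM, all of them present. The 5 B cell markers summed to 24.3 to 30.3 TPM in TB IL-2nil, 6.04 to 10.96 TPM in TB IL-2, 5.66 to 13.3 TPM in TB+ IL-2nil and 2.36 to 3.69 TPM in TB+ IL-2, with no marker at 0 in all libraries, and their part in the results below was not tested. The 4 libraries of replicate number 1 stood apart, with *Cd8a* at 6.88 to 13.5 TPM against 0.911 to 5.12 TPM in the other 8. Neither the labels nor the methods state that libraries came from separate animals, so P-values measure the spread between these libraries, which may be technical, and in bulk RNA fewer cells expressing a receptor and less transcript per cell cannot be told apart.

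The promoter sequences show the starts of genes that carry the changes described below. *Il6st* rose and *Ifngr1*, *Ifngr2* and *Il18r1* fell with PMA/I, and *Il12rb2* differed more between replicate numbers than between treatments. Each is the RefSeq sequence from 250 bases before to 50 after a transcription start, 5′ to 3′ (GRCm38.p6), for *Il18r1* that of the most downstream of its 3 listed starts. Capitals mark TTCNNNGAA, the form of site bound by STAT factors:
Il6st (chr13:112463820-112464119, plus strand): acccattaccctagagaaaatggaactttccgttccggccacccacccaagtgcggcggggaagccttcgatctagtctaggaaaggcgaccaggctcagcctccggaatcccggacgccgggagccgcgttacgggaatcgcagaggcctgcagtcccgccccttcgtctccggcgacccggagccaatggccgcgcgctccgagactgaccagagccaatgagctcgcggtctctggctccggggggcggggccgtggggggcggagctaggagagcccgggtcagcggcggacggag
Ifngr1 (chr10:19591699-19591998, plus strand): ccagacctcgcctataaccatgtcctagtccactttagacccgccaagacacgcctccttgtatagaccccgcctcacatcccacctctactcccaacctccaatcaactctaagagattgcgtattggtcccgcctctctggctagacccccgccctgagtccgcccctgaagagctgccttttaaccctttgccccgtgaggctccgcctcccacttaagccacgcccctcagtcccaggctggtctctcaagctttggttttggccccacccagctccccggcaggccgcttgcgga
Ifngr2 (chr16:91546809-91547108, plus strand): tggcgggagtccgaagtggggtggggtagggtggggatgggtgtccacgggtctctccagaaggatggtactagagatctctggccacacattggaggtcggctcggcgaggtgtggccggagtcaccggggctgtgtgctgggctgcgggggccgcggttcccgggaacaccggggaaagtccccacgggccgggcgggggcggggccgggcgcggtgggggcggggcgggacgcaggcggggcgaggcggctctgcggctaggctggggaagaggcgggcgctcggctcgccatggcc
Il18r1 (chr1:40465756-40466055, plus strand): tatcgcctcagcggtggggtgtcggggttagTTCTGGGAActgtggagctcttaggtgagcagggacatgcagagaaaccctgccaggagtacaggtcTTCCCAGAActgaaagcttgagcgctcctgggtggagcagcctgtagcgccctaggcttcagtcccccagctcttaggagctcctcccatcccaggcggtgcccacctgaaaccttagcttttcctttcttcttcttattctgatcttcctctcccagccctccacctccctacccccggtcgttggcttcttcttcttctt
Il12rb2 (chr6:67376139-67376438, minus strand): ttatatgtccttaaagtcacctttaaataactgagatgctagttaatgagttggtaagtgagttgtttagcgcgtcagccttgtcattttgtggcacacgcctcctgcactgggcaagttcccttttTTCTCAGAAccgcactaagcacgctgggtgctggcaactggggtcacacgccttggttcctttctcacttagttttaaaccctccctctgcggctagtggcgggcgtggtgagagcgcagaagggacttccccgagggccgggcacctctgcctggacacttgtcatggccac

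Both TTCNNNGAA and TGANTCA, the form of site bound by AP-1, were searched, and each reads the same on both strands. Promoters were listed for 8 of the 10 genes, 11 in all. TTCNNNGAA was found once in the *Il12rb2* promoter, 123 bases before the start, and at 219 and 152 bases before the most downstream of the listed *Il18r1* starts. No other promoter of the 11 held it, including those of the other *Il18r1* starts. TTCNNNGAA occurs in 8.3% of the 32851 mouse promoters of the same length. TGANTCA was found in none of the 11, against 7.81% of all promoters. A match is a description of letters and not a bound site.

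Without PMA/I, 1 of the 10 receptor genes, *Il12rb1*, was higher and 2, *Il6st* and *Il6ra*, were lower in TB IL-2 than in TB IL-2nil at an adjusted P under 0.05 (limma, Benjamini-Hochberg over all genes tested). Of all 12442 genes, 17.3% were higher and 22.3% lower by the same rule. In PMA/I-stimulated cells *Il12rb1* was higher and *Il6st* lower in TB+ IL-2 than in TB+ IL-2nil, beside 12.9% of all genes higher and 8.4% lower. PMA/I with IL-2 kept raised 2 receptor genes and lowered 3, beside 11.8% and 23.3% of all genes, and PMA/I without IL-2 raised 1 and lowered 4, beside 20.1% and 41.1%. The median log2 difference of the 10 genes in these 4 comparisons, in the same order, was -0.74, -0.12, -0.15 and -0.81, and that of all genes tested was -0.13, -0.04, -0.22 and -0.38. At more than 3-fold with the same P, *Il6st* and *Il6ra* were lower in TB IL-2 than in TB IL-2nil (2.73% of all genes), none was higher there (4.69%), *Il12rb1* was higher (3.21%) and none lower (0.41%) in TB+ IL-2 than in TB+ IL-2nil, *Il6st* rose (3.94%) and *Ifngr1* and *Ifngr2* fell (3.1%) with PMA/I and IL-2, and *Ifngr1* and *Ifngr2* fell with PMA/I without IL-2 (10.7%), where none was called higher (7.78%). This rule applies to log2(TPM + 1), on which *Il6st* rose by 1.56 without IL-2, just short of 3-fold, although its mean TPM rose 3.02-fold. The split of all genes depended on the scaling: the higher share of passing genes was 33.6% for PMA/I with IL-2, against 46.4% after quantile normalization and 57.1% after trimmed-mean (TMM) scaling, and 32.8% for PMA/I without IL-2, against 17.6% without upper-quartile scaling, 43.5% and 46.2%. Between TB+ IL-2 and TB+ IL-2nil it was 60.5%, against 96.1% without upper-quartile scaling. Each of the 4 groups enters 2 of these comparisons, so the comparisons are not independent of one another. Differences are given in log2(TPM + 1) after all libraries were scaled to a common upper quartile, and this scale understates changes of genes with few TPM.

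**Figure D1:**
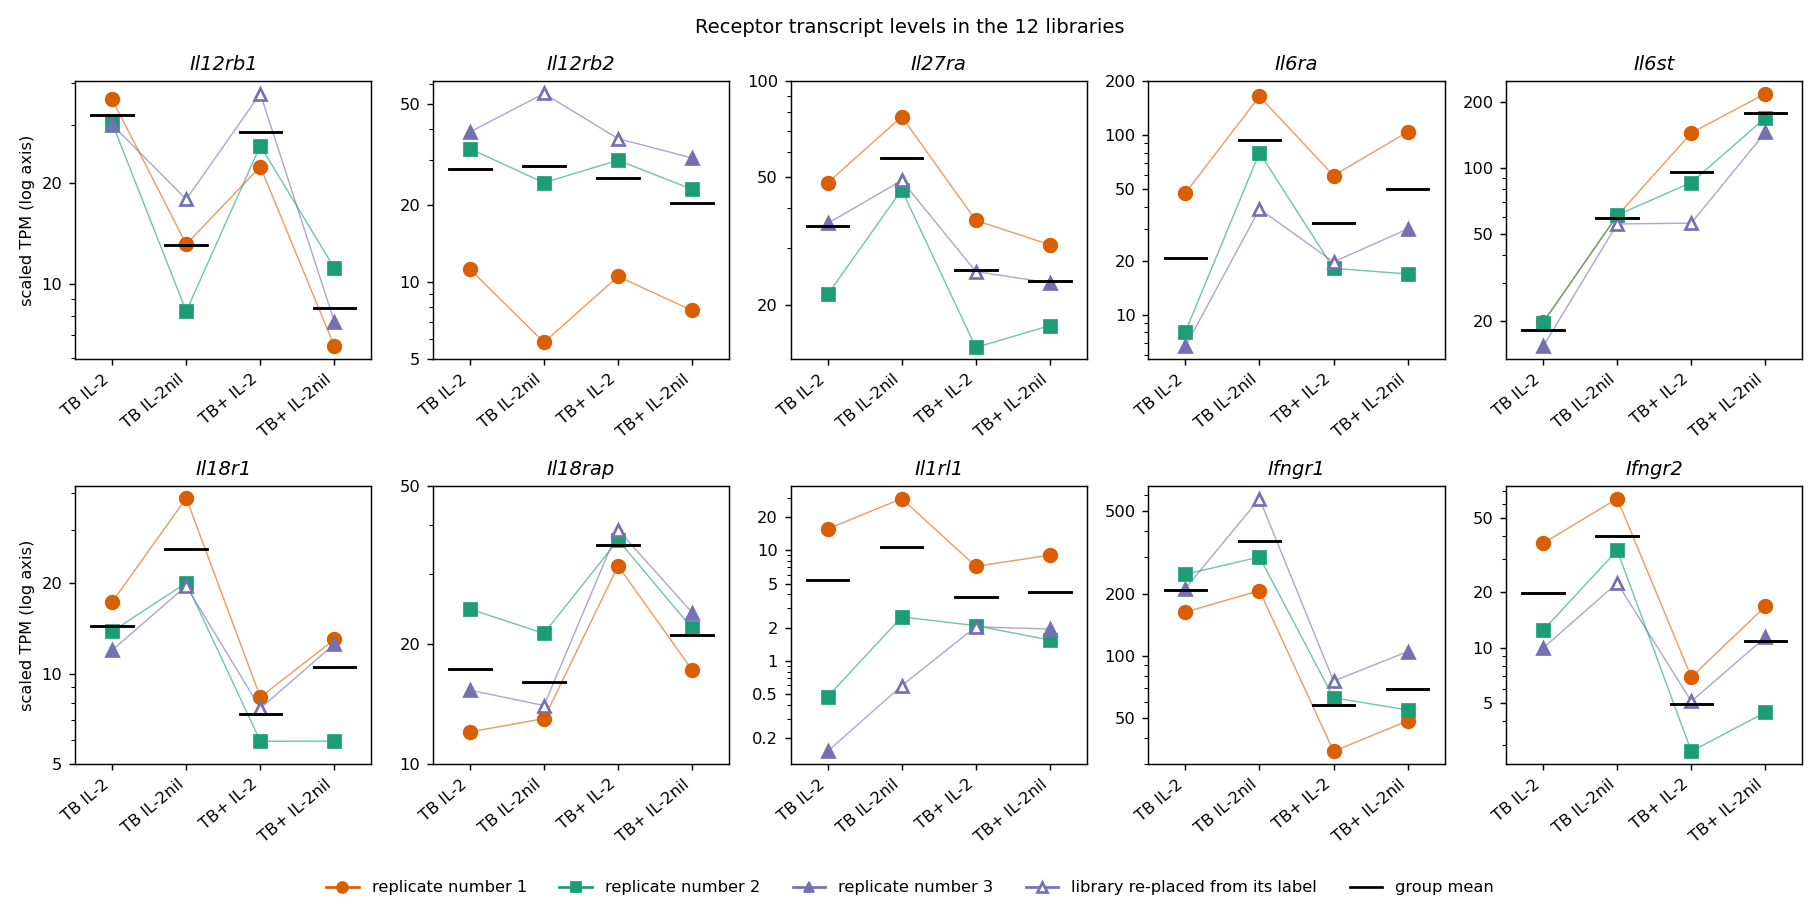
Level of each receptor transcript (vertical axis, scaled TPM, log scale) in the 4 groups (horizontal axis), with 1 point per library, lines joining libraries of the same replicate number, open symbols for the re-placed libraries and black bars for group means. *Il6st* lies at 15.3 to 19.8 TPM in TB IL-2 and at 146 to 219 TPM in TB+ IL-2nil, and in *Il12rb2* and *Il1rl1* replicate number 1 lies apart in every group.

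The libraries of 1 replicate number deviated together from their group means, so each comparison was also fitted with the replicate number as a block. The block leaves the differences as they are and takes the spread between numbers out of the error. With it 7 receptor genes passed between TB IL-2 and TB IL-2nil, 7 for PMA/I with IL-2, 6 for PMA/I without IL-2 and 3 between TB+ IL-2 and TB+ IL-2nil, against 3, 5, 5 and 2 without it. Calls over all genes rose as well, with the block to 21.3% higher and 29.5% lower, 15.0% and 31.3%, 22.8% and 46.3%, and 18.0% and 15.6% in the same order. As labelled, the counts were 0, 1, 1 and 0 without the block, *Il6st* being the gene that passed for PMA/I, and without both libraries they were 3, 3, 5 and 1. Leaving out both libraries also lowered the shares of all genes, in each direction of every comparison. In stimulated cells they went from 12.9% higher and 8.4% lower to 6.94% and 2.68%. For PMA/I with IL-2 the lower share went from 23.3% to 19.7%. As labelled, the shares of all genes were also low, at 0.0723% higher and 0.0482% lower, 0.241% and 0.257%, 1.92% and 3.46%, and 0.185% and 0.0321%. The 2 member counts of 0 compare with 2 and 2 genes at an unadjusted P under 0.05 in the same limma fit. When the responses to PMA/I with and without IL-2 were set against each other (interaction), 0 of the 10 genes passed (0 at an unadjusted P under 0.05), beside 1.57% of all genes higher and 2.66% lower (0.498% and 1.28% at more than 3-fold). With the block 2 passed, *Il6ra* and *Il27ra*, beside 6.11% of all genes higher and 5.77% lower.

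**Figure D2:**
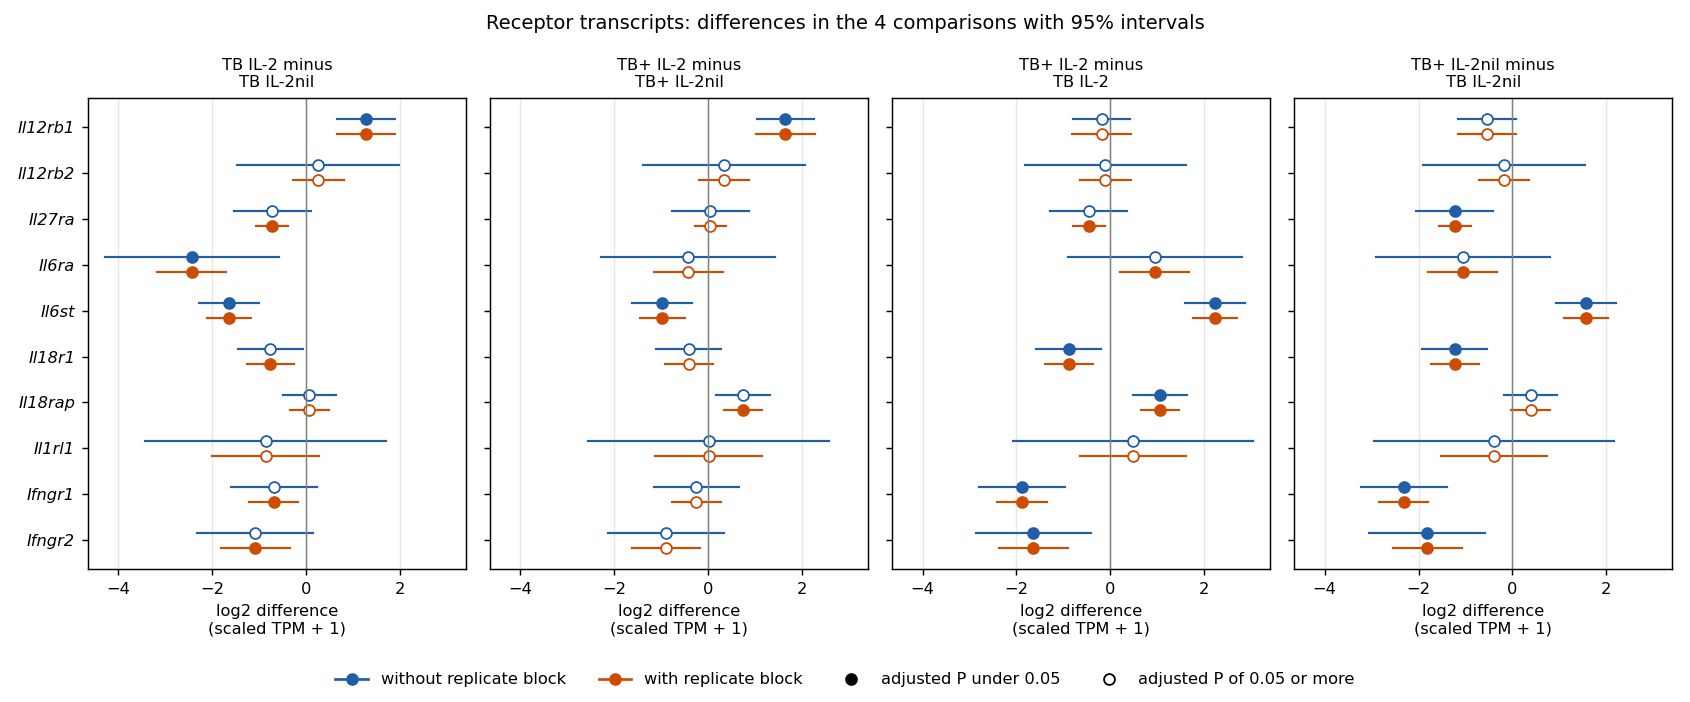
Log2 difference in scaled TPM + 1 (horizontal axis) of each receptor gene (vertical axis) in the 4 comparisons, with 95% intervals, without the replicate block (blue) and with it (orange). Filled symbols have an adjusted P under 0.05, and the intervals of *Il6ra*, *Il12rb2* and *Il1rl1* are the ones that the block narrows most.

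*Il12rb1* (chromosome 8, 73332348 to 73345323, plus strand, mm9) encodes the chain that the IL-12 and IL-23 receptors share. Its level was 35.71, 30.33 and 30.01 TPM in TB IL-2, 13.1, 8.27 and 17.9 TPM in TB IL-2nil, 22.5, 25.9 and 37.2 TPM in TB+ IL-2 and 6.49, 11.1 and 7.68 TPM in TB+ IL-2nil, in the order of replicates 1 to 3. Every library with IL-2 lay above every library without it. The mean was 2.44-fold higher in TB IL-2 than in TB IL-2nil (log2 difference 1.28, SE 0.28, limma adjusted P = 0.00465) and 3.38-fold higher in TB+ IL-2 than in TB+ IL-2nil (1.64, SE 0.28, adjusted P = 0.00259). As labelled, neither passed (adjusted P = 0.448 and 0.165 in limma), and without both libraries both did (0.00385 and 0.0129). The differences with PMA/I, -0.19 (95% interval -0.80 to 0.43) with IL-2 and -0.55 (-1.17 to 0.06) without, did not pass. The second passed without upper-quartile scaling (-1.04, limma adjusted P = 0.0332), where the median of all genes was at -0.78, and without TB IL-2nil replicate 2 (-0.82, 0.0237).

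*Il12rb2* (chromosome 6, 67241312 to 67326182, minus strand) encodes the chain of the IL-12 receptor that binds STAT4. It was at 11.2, 33.4 and 38.8 TPM in TB IL-2, 5.81, 24.5 and 54.9 TPM in TB IL-2nil, 10.5, 30.1 and 36.5 TPM in TB+ IL-2 and 7.75, 23.1 and 30.7 TPM in TB+ IL-2nil. All 4 groups overlapped, and within each group replicate 1 was the lowest and replicate 3 the highest. No difference passed the test, with log2 differences from -0.18 to 0.34 and a 95% interval of -1.46 to 1.98 for TB IL-2 against TB IL-2nil. As labelled they ran from 0.012 to 0.53 and without both libraries from -0.44 to 0.96, and none passed (smallest adjusted P = 0.776 and 0.380 in limma). With the block the intervals narrowed, to -0.28 to 0.80 for this comparison and to -0.65 to 0.44 for PMA/I with IL-2. Replicate number accounted for 90.5% of its sum of squares over the 12 libraries, and IL-2, PMA/I and their interaction for 2.58, 0.59 and 0.04%. Without both libraries and with the block it was higher in TB IL-2 than in TB IL-2nil by 0.61 (adjusted P = 0.0308 in limma).

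The 2 chains of the IL-12 receptor thus differed in what their level followed, IL-2 taking 80.1% of the sum of squares of *Il12rb1* and 2.58% of that of *Il12rb2*, given as a description.

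**Figure D3:**
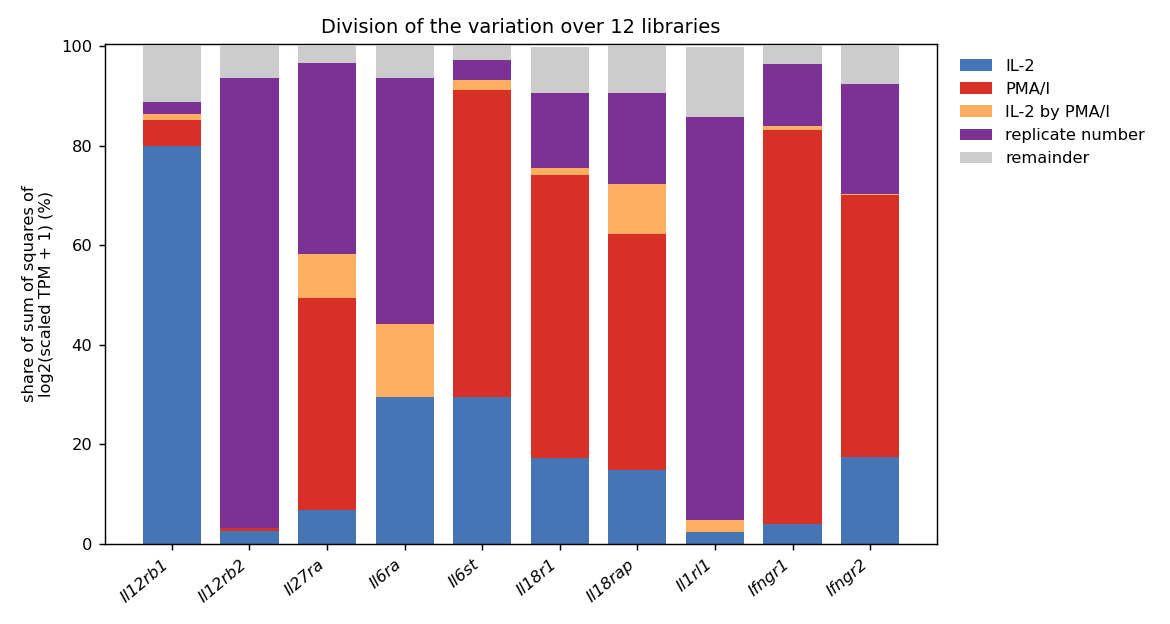
Share of the sum of squares of log2(scaled TPM + 1) over the 12 libraries (vertical axis, percent) taken by IL-2, PMA/I, their interaction, the replicate number and the remainder, for each receptor gene (horizontal axis). IL-2 takes 80.1% in *Il12rb1*, PMA/I 79.3% in *Ifngr1* and 61.7% in *Il6st*, and the replicate number 90.5% in *Il12rb2* and 81.1% in *Il1rl1*.

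*Il6st* (chromosome 13, 113265216 to 113297068, plus strand) had the smallest adjusted P of the 10 genes in 2 of the 4 comparisons, TB IL-2 against TB IL-2nil and PMA/I with IL-2. Its level was 19.8, 19.7 and 15.3 TPM in TB IL-2, 60.5, 61.0 and 55.5 TPM in TB IL-2nil, 145, 85.9 and 56.1 TPM in TB+ IL-2 and 219, 170 and 146 TPM in TB+ IL-2nil. All 4 pairs of groups compared were without overlap, although the third TB+ IL-2 library, at 56.1 TPM, lay within the range of TB IL-2nil. Withdrawal of IL-2 was accompanied by a 3.23-fold higher mean in unstimulated cells (TB IL-2 minus TB IL-2nil -1.65, SE 0.29, limma adjusted P = 0.00151) and a 1.86-fold higher mean in stimulated cells (-0.98, SE 0.29, adjusted P = 0.0352). PMA/I raised it 5.24-fold with IL-2 (2.23, SE 0.29, adjusted P = 0.000243) and 3.02-fold without (1.56, SE 0.29, adjusted P = 0.000775).

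The increases of *Il6st* with PMA/I passed as labelled (adjusted P = 0.0227 with IL-2 and 0.0313 without, limma) and without both libraries (0.000282 and 0.00141). The IL-2 difference in unstimulated cells did not pass as labelled (0.0655) and passed without both libraries (0.00285). In stimulated cells it passed in neither, at -0.98 (adjusted P = 0.158) and -0.65 (0.152), and it was lost without the library labelled TB IL-2nil replicate 3 (-0.65, 0.125), TB+ IL-2 replicate 2 (-0.95, 0.0892) or TB+ IL-2nil replicate 1 (-0.82, 0.128) or 2 (-1.0001, 0.0632). This difference did not pass either without a filter (-0.98, limma adjusted P = 0.0585) or without upper-quartile scaling (-0.58, 0.319).

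*Il6ra* (chromosome 3, 89673246 to 89717084, minus strand), the IL-6 binding chain, was at 47.6, 8.04 and 6.65 TPM in TB IL-2, 164, 79.8 and 38.7 TPM in TB IL-2nil, 59.5, 18.1 and 19.7 TPM in TB+ IL-2 and 104, 16.9 and 30.01 TPM in TB+ IL-2nil. Replicate 1 was the highest in every group, and the groups overlapped in all 4 comparisons. Within each replicate number TB IL-2nil was the higher, by 3.45-fold, 9.93-fold and 5.82-fold in numbers 1, 2 and 3, and the difference of -2.43 (SE 0.84) had an adjusted P = 0.0392 (limma). It did not pass as labelled (-2.12, adjusted P = 0.427) and passed without both libraries (-2.95, 0.0446), and it was lost without TB IL-2 replicate 2 (-2.07, 0.130) or 3 (-1.95, 0.140), without TB IL-2nil replicate 1 (-1.92, 0.136) or 2 (-2.44, 0.0854), and, narrowly, without TB+ IL-2 replicate 2 (0.0505) or TB+ IL-2nil replicate 3 (0.0528). With a pseudocount of 0.1 (-2.54, limma adjusted P = 0.0518) or no filter (-2.39, 0.0848) it did not pass either.

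With the replicate block, *Il6ra* had an adjusted P = 0.000412 for this comparison (limma), rose with PMA/I in the presence of IL-2 (0.94, adjusted P = 0.0396) and fell with PMA/I in its absence (-1.06, 0.0158). Within replicate numbers 1, 2 and 3, PMA/I with IL-2 went with 1.25-fold, 2.25-fold and 2.96-fold higher levels, and PMA/I without IL-2 with 1.58-fold, 4.73-fold and 1.29-fold lower levels. Without both libraries and with the block the rise did not pass (0.86, adjusted P = 0.138) and the fall did (-1.25, 0.0292).

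*Il27ra* (chromosome 8, 86554186 to 86566488, minus strand), the IL-27 binding chain, was at 48.1, 21.5 and 35.9 TPM in TB IL-2, 77.4, 45.7 and 48.9 TPM in TB IL-2nil, 36.7, 14.7 and 25.4 TPM in TB+ IL-2 and 30.8, 17.2 and 23.4 TPM in TB+ IL-2nil. TB IL-2nil lay above TB+ IL-2nil without overlap, and the other 3 comparisons overlapped. PMA/I without IL-2 lowered its mean 2.41-fold (-1.23, SE 0.37, limma adjusted P = 0.0141), as labelled with an adjusted P = 0.224 and without both libraries 0.0363. This call was lost without TB IL-2nil replicate 1 (-0.997, 0.0573) or TB+ IL-2nil replicate 2 (-1.03, 0.0593), and with no filter (-1.04, 0.0564). With the block, *Il27ra* was also lower in TB IL-2 than in TB IL-2nil (-0.72, adjusted P = 0.00379) and lower with PMA/I in the presence of IL-2 (-0.46, 0.0319). Without both libraries and with the block the first of these passed (-0.84, 0.0112) and the second did not (-0.47, 0.0829).

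*Il1rl1*, *Il18r1* and *Il18rap* lie next to one another on chromosome 1 in mm9, at 40486415 to 40522260, 40522397 to 40557699 and 40572207 to 40608550, all on the plus strand. *Il18r1* encodes the IL-18 binding chain, *Il18rap* the accessory chain without which IL-18 does not signal, and *Il1rl1* the IL-33 receptor ST2, which is typical of Th2 and some regulatory T cells and of mast cells.

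*Il18r1* was at 17.3, 13.8 and 11.96 TPM in TB IL-2, 38.4, 20.04 and 19.6 TPM in TB IL-2nil, 8.34, 5.95 and 7.66 TPM in TB+ IL-2 and 12.99, 5.95 and 12.5 TPM in TB+ IL-2nil. Every PMA/I library lay below every library of the matching unstimulated group. Its mean fell 1.96-fold with PMA/I in the presence of IL-2 (-0.88, SE 0.32, limma adjusted P = 0.0493) and 2.48-fold in its absence (-1.23, SE 0.32, adjusted P = 0.00563). The first call lay at the threshold and was lost as labelled (-0.47, 0.759), without both libraries (-0.92, 0.0920) and when any 1 of 10 libraries was left out (0.0503 to 0.153), that is each but TB IL-2nil replicate 1 and TB+ IL-2nil replicate 2, while the second was lost as labelled (-0.81, 0.311) and passed without both (-1.39, 0.0119). Other scalings, a pseudocount of 0.1, no filter, and replicate numbers 2 and 3 alone also lost the first call (limma adjusted P = 0.0574 to 0.204). *Il18r1* was also lower in TB IL-2 than in TB IL-2nil with the block (-0.76, adjusted P = 0.0197, against 0.0767 without it), and the 2 groups did not overlap. This difference was -0.34 as labelled (0.856 without the block) and -0.94 without both libraries (0.0297 with the block).

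*Il18rap* went the other way with PMA/I. It was at 12.03, 24.5 and 15.3 TPM in TB IL-2, 13.001, 21.3 and 14.02 TPM in TB IL-2nil, 31.5, 36.6 and 38.8 TPM in TB+ IL-2 and 17.2, 21.9 and 24.0 TPM in TB+ IL-2nil. The 3 TB+ IL-2 libraries lay above all 9 others. PMA/I raised its mean 2.06-fold with IL-2 (1.05, SE 0.26, limma adjusted P = 0.00941), as labelled with an adjusted P = 0.602 and without both libraries 0.0410. Without IL-2 the difference was 0.39 (95% interval -0.18 to 0.96), which passed after TMM scaling (0.69, limma adjusted P = 0.0477), and the 2 responses were not shown to differ (interaction 0.67, adjusted P = 0.302). In stimulated cells it was 1.69-fold higher with IL-2 (0.74, adjusted P = 0.0652, 0.0133 with the block, 0.0368 without TB IL-2 replicate 2, and 1.11 with 0.0244 without upper-quartile scaling), and without both libraries by 0.70 with the block (0.0766). Over replicate numbers 2 and 3 alone, the increase with PMA/I and IL-2 was 0.92 with an adjusted P = 0.0687.

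*Il1rl1* was at 15.6, 0.474 and 0.152 TPM in TB IL-2, 29.4, 2.50 and 0.597 TPM in TB IL-2nil, 7.17, 2.08 and 2.03 TPM in TB+ IL-2 and 9.06, 1.54 and 1.94 TPM in TB+ IL-2nil. Replicate number 1 held the 4 highest of the 12 levels, from 7.17 to 29.4 TPM, against 0.152 to 2.50 TPM in the other 8 libraries. No difference passed in any comparison, with or without the block, and the 95% interval for TB IL-2 against TB IL-2nil was -3.43 to 1.70. That difference was -1.17 as labelled (limma adjusted P = 0.746) and -1.76 without both libraries (0.318). Of 6 mast cell and basophil markers, *Fcer1a* and *Tpsb2* were at 0 in all 12 libraries, and the 3 kept, *Ms4a2*, *Cpa3* and *Kit*, summed to 0.882 to 5.16 TPM. *Gata3*, which encodes the Th2 factor, spanned 114 to 571 TPM in replicate number 1 and 93.9 to 594 TPM in the other 8 libraries. Among regulatory T cell markers, *Ikzf2* spanned 2.73 to 9.01 TPM in replicate number 1 and 0.759 to 4.66 TPM in the other 8. For *Foxp3* the ranges were 0.224 to 1.68 TPM and 0.0807 to 1.15 TPM. What sets replicate number 1 apart was not tested.

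Of the 12 genes listed along this stretch of chromosome 1, 9 were kept. Of these, 6 exceeded 1 TPM in stimulated and in unstimulated libraries alike. With PMA/I and IL-2 *Il18rap* rose, *Il18r1* fell and 4 did not pass, beside 11.8% of all genes higher and 23.3% lower. *Il1r2* and *Il1r1* exceeded 1 TPM in stimulated libraries only, so that their stimulated level is what kept them and no test is given. *Il1r2*, which encodes a decoy receptor for IL-1, went from 0.0897 to 0.533 TPM in TB IL-2 to 5.21 to 14.5 TPM in TB+ IL-2. *Il1r1*, the signalling IL-1 receptor, was at 0 to 0.0355 TPM in TB IL-2 and 0.398 to 1.76 TPM in TB+ IL-2. The call of *Il18r1* held in 7 of 25 alternatives and that of *Il18rap* in 23.

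*Ifngr1* (chromosome 10, 19311755 to 19330035, plus strand), the chain that binds IFN-γ, had the highest mean of the 10 genes in unstimulated cells. It was at 163, 248 and 212 TPM in TB IL-2, 207, 301 and 576 TPM in TB IL-2nil, 34.5, 62.6 and 75.5 TPM in TB+ IL-2 and 48.4, 54.7 and 105 TPM in TB+ IL-2nil. All 6 stimulated libraries lay below all 6 unstimulated ones. PMA/I lowered its mean 3.61-fold with IL-2 (-1.88, SE 0.42, limma adjusted P = 0.00536) and 5.21-fold without (-2.32, SE 0.42, adjusted P = 0.00061). Neither passed as labelled (-0.91, adjusted P = 0.696, and -1.35, 0.294), and both passed without the 2 libraries (-2.11, 0.00445, and -1.92, 0.00299). With the block it was also lower in TB IL-2 than in TB IL-2nil (-0.69, adjusted P = 0.0344, against 0.209 without the block), where the third TB IL-2nil value, 576 TPM, comes from a re-placed library, and without both libraries this difference was -0.47 (adjusted P = 0.204 with the block).

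*Ifngr2* (chromosome 16, 91547317 to 91565414, plus strand), the signalling partner of IFNGR1, was at 36.6, 12.4 and 9.96 TPM in TB IL-2, 63.8, 33.6 and 22.3 TPM in TB IL-2nil, 6.95, 2.76 and 5.14 TPM in TB+ IL-2 and 16.7, 4.48 and 11.4 TPM in TB+ IL-2nil. The stimulated groups lay below their unstimulated counterparts without overlap. The mean fell 3.97-fold with PMA/I and IL-2 (-1.64, SE 0.56, limma adjusted P = 0.0419) and 3.67-fold with PMA/I alone (-1.81, SE 0.56, adjusted P = 0.0156). As labelled neither passed (0.678 and 0.375), and without both libraries only the second did (-1.69, 0.0784, and -2.15, 0.0207).

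Single libraries also decided the calls of *Ifngr2*. The first was lost without TB IL-2 replicate 1 (-1.09, limma adjusted P = 0.161) or replicate 2 (-1.84, 0.0538), TB+ IL-2 replicate 1 (-1.88, 0.0536) or 2 (-1.34, 0.148), the libraries labelled TB IL-2nil replicate 2 (0.0570) and 3 (-1.69, 0.0736), or TB+ IL-2nil replicate 3 (0.0546). It was also lost with no filter (0.108), without upper-quartile scaling (0.0623), after quantile normalization (0.107) or TMM scaling (0.0777), and in replicate numbers 2 and 3 alone (0.0862). The second was lost without TB IL-2nil replicate 1 (-1.42, 0.0646) or TB+ IL-2nil replicate 2 (-1.34, 0.0712), and with no filter (-1.63, 0.0538). With the block both passed (adjusted P = 0.00319 and 0.000835), and *Ifngr2* was lower in TB IL-2 than in TB IL-2nil (-1.08, adjusted P = 0.0205, and 0.0261 without both libraries).

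The order of the levels differed between groups. TPM values are corrected for transcript length, so genes can be set side by side. In TB IL-2, *Ifngr1* averaged 207 ± 42.8 TPM (SD, n = 3) and *Il1rl1* 5.42 ± 8.85 TPM, and the 8 genes between them averaged 14.4 to 35.2 TPM, and neighbours in this order differed by less than the larger of their SDs, except *Ifngr1* from *Il27ra* and *Il18r1* from *Il1rl1*. In TB IL-2nil the 3 highest were *Ifngr1* (361 ± 192 TPM), *Il6ra* (94.3 ± 64.0) and *Il6st* (59.0 ± 3.03). In TB+ IL-2 they were *Il6st* (95.6 ± 45.2), *Ifngr1* (57.5 ± 21.0) and *Il18rap* (35.6 ± 3.75), and in TB+ IL-2nil *Il6st* (178 ± 37.3), *Ifngr1* (69.3 ± 30.9) and *Il6ra* (50.3 ± 47.1).

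The genes with the most similar pattern were sought by Pearson's r of log2 values over the 12 libraries, which share treatments and replicate numbers. *Ifngr2* and *Il18r1* were each other's closest gene (r = 0.97). The closest gene to *Il6st* was *Fam179b* (r = 0.99), to *Ifngr1* *Ntpcr* (0.98), to *Il12rb1* *Mrps18c* (0.98), to *Il12rb2* *Mtmr1* (0.96), to *Il18rap* *Golim4* (0.92), to *Il27ra* *9030617O03Rik* (0.95), to *Il6ra* *Lncpint* (0.95) and to *Il1rl1* *Cd200r1* (0.91). The next most similar genes to *Il12rb2* were the small nucleolar RNAs *Snord47* and *Snord35a* (0.93 and 0.92).

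**Figure D4:**
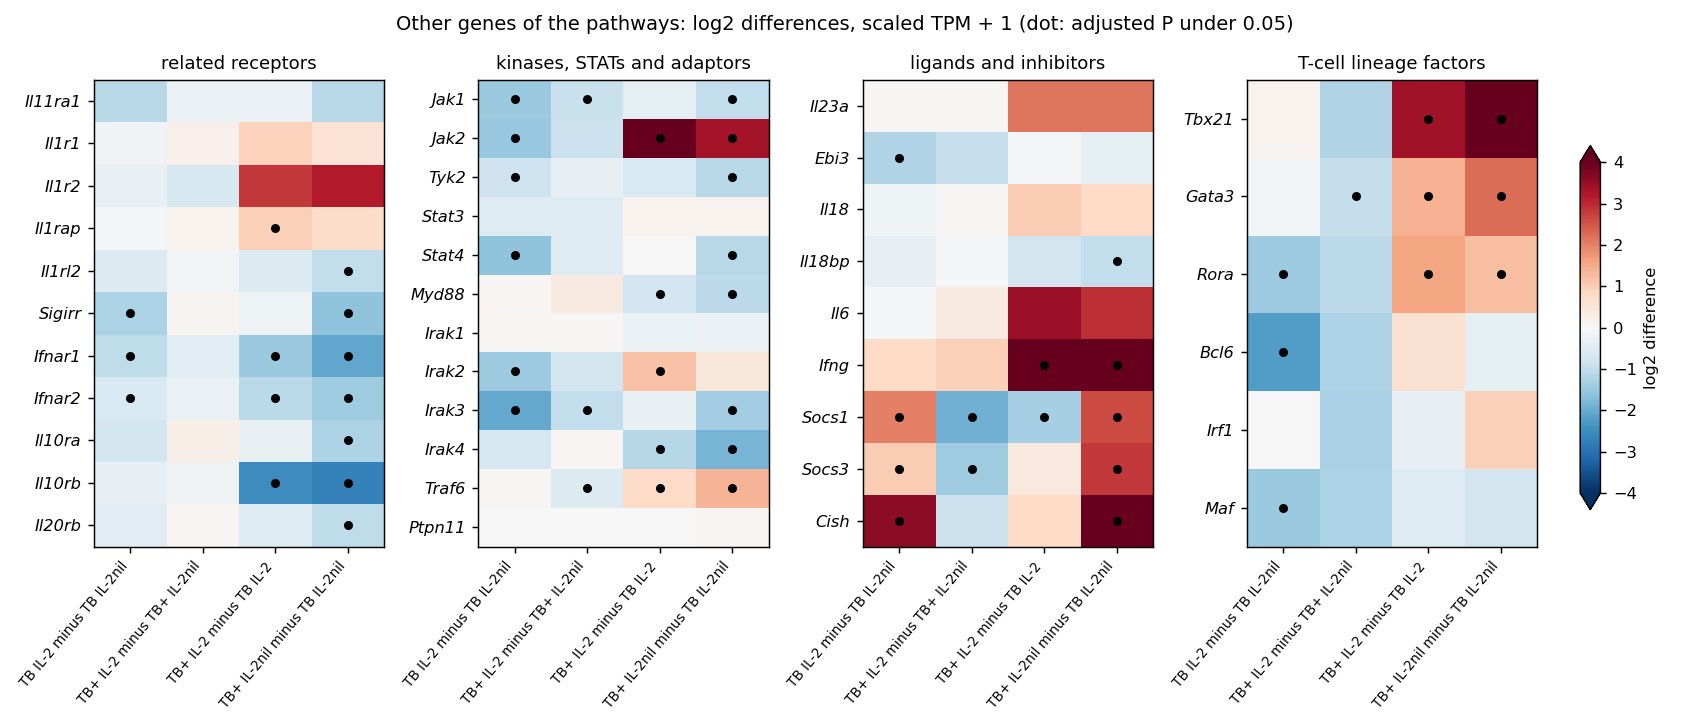
Log2 difference in scaled TPM + 1 (colour, limited to -4 to 4) of the other listed genes that were kept (vertical axis) in the 4 comparisons (horizontal axis), in 4 panels, with a dot where the adjusted P was under 0.05. *Jak2* and *Ifng* are deep red for PMA/I, and *Il10rb* and *Ifnar1* blue. *Il1r1*, *Il1r2*, *Il23a*, *Il18* and *Il6* were kept through stimulated libraries only and *Il11ra1* through TB IL-2nil only, and they carry no dots. *Irak3* carries dots, although its level without IL-2 is largely what kept it.

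Among 20 related receptor genes, 11 were kept. Between TB IL-2 and TB IL-2nil *Sigirr*, *Ifnar1* and *Ifnar2* were lower with IL-2, as was *Il11ra1*, which exceeded 1 TPM in TB IL-2nil only and is not counted further. By the same rule 22.3% of all genes were lower with IL-2 and 17.3% higher. *Sigirr*, which encodes an inhibitor of IL-1 family receptors, was at 12.1 to 18.6 TPM in TB IL-2 and 35.7 to 42.9 TPM in TB IL-2nil (-1.28, limma adjusted P = 0.00412). In PMA/I-stimulated cells 0 of 11 passed in limma between TB+ IL-2 and TB+ IL-2nil, beside 12.9% of all genes higher and 8.4% lower. At an unadjusted P under 0.05 the count was also 0. Among the 8 over 1 TPM with and without stimulation, PMA/I with IL-2 raised 1, *Il1rap*, and lowered 3, *Il10rb*, *Ifnar1* and *Ifnar2*, and PMA/I without IL-2 lowered 7 while 1 did not pass. Of all genes tested, PMA/I raised 11.8% and lowered 23.3% with IL-2, and raised 20.1% and lowered 41.1% without. *Il10rb*, a chain shared by IL-10 family receptors, fell from 30.9 to 43.3 TPM in TB IL-2 to 4.41 to 6.49 TPM in TB+ IL-2 (-2.52, adjusted P = 1.81e-05). *Ifnar1*, the type I interferon receptor chain, fell from 64.5 to 71.5 TPM in TB IL-2nil to 8.96 to 23.6 TPM in TB+ IL-2nil (-2.09, adjusted P = 9.82e-05).

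All 12 listed kinases, STATs and adaptors of these receptors were kept. Between TB IL-2 and TB IL-2nil 6 were lower with IL-2, *Irak3* included, beside 22.3% of all genes. The 4 with the smallest adjusted P were *Irak3*, *Jak1*, *Jak2* and *Stat4*. Of these, *Irak3* was at 0.303 to 0.864 TPM in TB IL-2 and 4.28 to 7.49 TPM in TB IL-2nil. It also lay below 1 TPM in TB+ IL-2 (0.094 to 0.355 TPM). Its level without IL-2 is thus largely what kept it, and no weight is given to its calls or to its place in the counts. *Jak2*, the kinase of IL12RB2 and IFNGR2, rose from 28.4 to 51.9 TPM in TB IL-2 to 441 to 722 TPM in TB+ IL-2 (3.99, limma adjusted P = 3.65e-06), and from 104 to 113 TPM in TB IL-2nil to 760.5 to 1394 TPM in TB+ IL-2nil (3.32, 5.18e-06). *Stat4* was at 32.1 to 89.7 TPM in TB IL-2 and 114 to 232 TPM in TB IL-2nil (-1.60, adjusted P = 0.00682). PMA/I with IL-2 raised 3 of the 12 and lowered 2, beside 11.8% and 23.3% of all genes. PMA/I without IL-2 raised 2 and lowered 6, *Irak3* included, beside 20.1% and 41.1%. *Myd88*, the adaptor of IL-1 family receptors, fell with PMA/I and IL-2 from 31.6 to 42.1 TPM in TB IL-2 to 19.1 to 22.5 TPM in TB+ IL-2 (-0.75, limma adjusted P = 0.00582).

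Of 13 genes for ligands and inhibitors of these pathways, 9 were kept, of which *Il23a*, *Il18* and *Il6* exceeded 1 TPM in stimulated libraries only and are not counted. Of the other 6, PMA/I with IL-2 raised *Ifng* and lowered *Socs1*, and PMA/I without IL-2 raised 4 and lowered *Il18bp*. The shares of all genes were 11.8% higher and 23.3% lower with IL-2, and 20.1% and 41.1% without. *Ifng* rose from 1.46 to 4.14 TPM in TB IL-2 to 1230 to 3803 TPM in TB+ IL-2 (8.84, limma adjusted P = 3.33e-07), in the same libraries in which both IFN-γ receptor genes were lower. *Il6*, the ligand of IL6RA, was at 0 to 0.195 TPM in TB IL-2 and 1.97 to 63.1 TPM in TB+ IL-2. The inhibitors *Socs1*, *Socs3* and *Cish* were higher in TB IL-2 than in TB IL-2nil, while in stimulated cells *Socs1* and *Socs3* were lower with IL-2 and *Cish* did not pass, and the interaction passed for all 3 (adjusted P = 0.0125, 0.0122 and 0.0108).

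Of 7 lineage genes, 6 were kept, and PMA/I raised 3, with and without IL-2: *Tbx21*, *Gata3* and *Rora*. The share of all genes raised was 11.8% with IL-2 and 20.1% without. *Tbx21*, which encodes the Th1 factor T-bet, went from 6.69 to 14.2 TPM in TB IL-2 to 91.4 to 146 TPM in TB+ IL-2 (3.36, limma adjusted P = 0.000291). Between TB IL-2 and TB IL-2nil, *Rora*, *Bcl6* and *Maf* were lower with IL-2, beside 22.3% of all genes. In stimulated cells *Gata3* was lower with IL-2, beside 8.4%. *Bcl6* was low in TB IL-2 (0.77 to 0.88 TPM, against 4.42 to 13.4 TPM in TB IL-2nil), and such low levels are less certain. With the groups as labelled, *Traf6*, *Socs1*, *Socs3* and *Gata3* were the genes of these 4 lists that passed, all higher with PMA/I without IL-2. Without both libraries the counts of each list in each direction moved by at most 2 genes, the single-gene values given above passed again except the interactions of *Socs1* and *Socs3*, and *Ifnar2*, *Ebi3* and *Maf* (IL-2, unstimulated), *Socs1* (PMA/I with IL-2) and *Il18bp* (PMA/I without IL-2) were among the calls lost.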

How the data were processed

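RNA was depleted of ribosomal RNA and sequenced from directional libraries. Per the labels, reads were trimmed with Trimmomatic 0.32, aligned to mm9 with HISAT2 2.1.0 and quantified with StringTie 1.3.3, and the methods name RefSeq models. The deposited values are FPKM, 1 table per library, although the methods name TPM, and no read counts were used.

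FPKM values were divided by their sum in each library to give TPM (1000000 in all). A gene was kept if any library held it above 1 TPM, and the 75th percentiles were set equal. The 4 groups were compared on log2(TPM + 1) with limma 3.58.1 under R 4.3.3, without a block, with Benjamini-Hochberg adjustment over all genes kept. The fit was also run on simulated data with independent noise in each library. That check does not cover the shared deviation of libraries of 1 replicate number. Summaries and plots were made in Python 3.11.15 (numpy 2.4.6, pandas 2.3.3, matplotlib 3.10.9). FPKM values hold no counts, so only relative depth is known, no counting interval is given and low levels are less certain.

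Groups follow the labels except for 2 libraries, labelled TB IL-2nil replicate 3 and TB+ IL-2 replicate 3. Over 1381 genes of the study's list, values under these headings matched the library of the other label for 99.9% and 100% of genes (within 0.1%) and that of the same label for 0.0724%. The other 10 headings matched their own library for 99.86 to 100% of genes. For this check the libraries were quantile-normalized, from TPM with or without upper-quartile scaling, whichever matched better. Replicate numbers come from the labels. With the libraries so placed, the 18 correlations between libraries of the same number ran from 0.101 to 0.531, and in number 2 from 0.101 to 0.297. On this basis the numbers were taken as pairs. Libraries of different numbers were not compared, so this does not test the pairing. As labelled, the correlations ran from -0.777 to 0.453, but there stimulated and unstimulated libraries share a group.

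The receptor genes and the other gene and marker lists were chosen with earlier results of these data known, and 2 listed genes are not reported here. All 10 receptor genes are named, and from the other lists the genes that passed or, where more than 4 passed, some of the 4 with the smallest adjusted P. Similar genes were the 3 with the highest r among genes of at least 10 TPM on average. Gene coordinates are from GENCODE M1 on mm9 and promoters from RefSeq on GRCm38.p6. The alternatives were the groups as labelled, leaving out both re-placed libraries or each library in turn, a pseudocount of 0.1, no filter or one of over 1 TPM in 3 libraries, no upper-quartile scaling, quantile normalization, TMM scaling, leaving out short non-coding RNAs, an intensity trend and the replicate block. Chosen after seeing the data were the block without both libraries and the use of replicate numbers 2 and 3 alone.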

Additional observations from a re-analysis of the deposited data

Results flagged for a closer look

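The response of *Il6ra* to PMA/I differed with IL-2 when the replicate number was a block. The interaction, the PMA/I difference with IL-2 minus that without, was 2.01 (SE 0.46, 95% interval 0.97 to 3.04, limma adjusted P = 0.0281), and *Il6ra* was higher with PMA/I in 3 of 3 replicate numbers with IL-2 and lower in 3 of 3 without. The same value had an adjusted P = 0.339 without the block and 0.101 with the block but without both re-placed libraries (2.11). In that last fit 0 of all 12442 genes passed the interaction test in either direction.

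The response of *Il27ra* to PMA/I differed in the same way, with an interaction of 0.77 (SE 0.21, 95% interval 0.29 to 1.25, adjusted P = 0.0480 in limma with the block, 0.412 without the block, and 0.88 with 0.113 without both libraries). It was lower with PMA/I in 3 of 3 replicate numbers both with and without IL-2, by 1.31-fold to 1.46-fold and by 2.09-fold to 2.65-fold. No other receptor gene passed the interaction test with the block, beside 6.11% of all genes higher and 5.77% lower. With the block but without both libraries, 0% of all genes passed it in either direction.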

How the results depend on the processing

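As labelled, 0 genes passed between TB IL-2 and TB IL-2nil and between TB+ IL-2 and TB+ IL-2nil, and 1 in each PMA/I comparison. More than 3-fold, the counts were then 0, 0 (PMA/I without IL-2) and 0, and 1 for PMA/I with IL-2. By the same rule at most 1.17% of all genes were called in either direction. The block gave 7 genes for TB IL-2 against TB IL-2nil and 2 for the interaction, also 7 (1 more than 3-fold) without both libraries, where *Ifngr1* was lost and *Il12rb2* gained (all genes 21.3% higher and 29.5% lower, and 17.0% and 22.3% without both), and it changed no call other than those given. Passing for PMA/I with IL-2 fell from 5 to 3 without both libraries, filter or upper-quartile scaling and with quantile or TMM scaling, and to 2 in replicate numbers 2 and 3. Without a filter it was 3 for PMA/I without IL-2 and 1 for stimulated cells, and there also 1 without both libraries. More than 3-fold, 1 gene was called before stimulation with a pseudocount of 0.1, no filter or TMM scaling, 4 for PMA/I without IL-2 without upper-quartile scaling and 1 after quantile normalization, and 0 in stimulated cells without both libraries (also with the block) or after quantile normalization. Without both libraries, 2.39% of all genes were higher and 0.289% lower by this rule in stimulated cells, and 3.16% and 0.378% with the block. When single libraries were left out, passing counts ran from 3 to 5 (PMA/I with IL-2), 3 to 6 (without) and 1 to 3 (stimulated cells), and counts more than 3-fold from 0 to 3 (unstimulated), 1 to 3, 1 to 3 and 0 to 1. The cause of these changes was not tested.

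Every reversed difference missed the threshold in the analysis reported. For TB IL-2 minus TB IL-2nil these were *Il12rb2* at -0.032 (replicate numbers 2 and 3), *Il18rap* at -0.40 (as labelled), -0.0075 (without both libraries), -0.0087 (no upper-quartile scaling) and -0.0295 (block, without both) and *Ifngr1* at 0.28 (as labelled). For PMA/I with IL-2, *Il12rb1* was 0.0926 (TMM) and 0.0414 (numbers 2 and 3), and *Il12rb2* 0.086 (as labelled), 0.038 (no filter), 0.0393 (quantile) and 0.17 (TMM). For PMA/I without IL-2, *Il12rb2* was 0.012 (as labelled), 0.51 (without both), 0.0061 (no filter), 0.0752 (quantile), 0.12 (TMM) and 0.17 (block, without both), *Il18rap* -0.083 (as labelled) and -0.14 (no upper-quartile scaling), and *Il1rl1* 0.06 (quantile) and 0.21 (numbers 2 and 3). In stimulated cells, *Il18r1* was 0.0064, *Ifngr1* 0.72 and *Il1rl1* -0.30 as labelled, *Il27ra* -0.0502 (numbers 2 and 3), *Ifngr1* 0.14 (no upper-quartile scaling) and *Il1rl1* -0.0013 (over 1 TPM in 3 libraries), -0.0529 (quantile) and -0.23 (block, without both). For the interaction, *Il12rb1* was -0.0793 (without both), -0.0654 (quantile) and -0.17 (block, without both), *Il12rb2* -0.95, -0.0358 and -0.26 in the same order, and *Ifngr1* -0.19 (without both).

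Leaving out single libraries, reversals occurred within these ranges: unstimulated, *Il12rb2* -0.56 to 0.96, *Il18rap* -0.20 to 0.29 and *Il1rl1* -2.09 to 0.37; PMA/I with IL-2, *Il12rb2* -0.64 to 0.42 and *Il1rl1* -0.22 to 1.70; PMA/I without IL-2, *Il12rb2* -1.004 to 0.51 and *Il1rl1* -1.29 to 0.84. In stimulated cells they were *Il12rb2* -0.22 to 0.86, *Il27ra* -0.25 to 0.38, *Il6ra* -0.99 to 0.29, *Ifngr1* -0.48 to 0.0865 and *Il1rl1* -0.46 to 0.63, and for the interaction *Il12rb2* -0.62 to 0.90, *Ifngr2* -0.30 to 0.72 and *Il1rl1* -0.36 to 2.09.

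The median of all genes shifted by up to -0.40 (no upper-quartile scaling, PMA/I without IL-2). Relative to that median, PMA/I without IL-2 gave *Il6st* 1.36 to 2.01 and *Ifngr1* -2.62 to -1.86 over the 4 scalings, and in stimulated cells *Il6st* was at -0.93 to -0.79 and *Il12rb1* at 1.45 to 1.76. Unscaled, *Il6st* in stimulated cells was -0.58 (adjusted P = 0.319 in limma). Levels without short non-coding RNAs were higher in every group. Depth is known only relative to other libraries.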

Other observations

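Of the other marker lists, 5 of 5 regulatory T cell markers were kept and summed to 178 to 381 TPM over the 12 libraries. Within this sum *Tnfrsf18* spanned 111 to 320 TPM and *Ctla4* 11.8 to 165 TPM. *Foxp3* spanned 0.0807 to 1.68 TPM, exceeding 1 TPM in unstimulated libraries only, and *Ikzf2* 0.759 to 9.01 TPM. *Lrrc32* and *Tnfrsf18* were higher and *Ctla4* lower in TB IL-2 than in TB IL-2nil (limma, adjusted P under 0.05), beside 17.3% and 22.3% of all genes. These 3 calls were lost with the groups as labelled and passed again without both re-placed libraries. Both CD8 T cell markers were kept and summed to 6.91 to 31.9 TPM, and neither passed in any of the 4 comparisons. *Eomes* was the 1 natural killer cell marker of 4 that was kept, *Ncr1* being at 0 in all libraries, and 3 of 6 myeloid markers were kept, summing to 1.57 to 4.88 TPM.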
